A study of Mus musculus with 8 samples.

Results

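Leukocytes of the lung interstitium were compared between Rag1-/- and wild-type mice after saline alone, before any mineral dust entered the comparison. The RagKO saline group held Rag1-/- mice that were also depleted of natural killer (NK) cells, and the wild-type (WT) saline group held C57Bl/6 mice. Each group had 2 of the study's 8 arrays, so the log2 differences rest on 4 arrays, chosen by their titles alone. The p-values also drew on the spread between replicates of the other arrays, because all 8 were fitted together. The comparison covered 11597 genes with a value on every array of the study. The labels give Rag1-/- as the genotype of the RagKO mice and name no strain for them. Those mice received 300 µg of antibody against NK1.1 into the peritoneum on days -6, -3 and -1 and then weekly, 2 days ahead of each exposure, whereas no antibody is named for WT mice. Both groups were 6 to 8 weeks old and received 25 µl of sterile saline through the nose under ketamine (80 mg/kg), 1 time a week for 4 weeks. The remaining 4 arrays, in pairs, came from WT and RagKO mice given 1 mg of crystalline silica in the same volume. Lungs were minced, digested with collagenase (1 mg/ml), passed through a 70 µm strainer and centrifuged over a 40 to 70% Percoll gradient, which enriches white blood cells by density and does not sort them by type. The missing gene and the antibody were always combined, so their effects cannot be told apart. The arrays of a group are labelled biological replicates with no number of mice behind each, and the p-values below carry only the spread from array to array.

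Rag1 encodes part of the recombinase that assembles the antigen receptor genes, and without it neither B cells nor alpha beta or gamma delta T cells mature. NK cells and innate lymphoid cells do not need the recombinase, and the antibody against NK1.1, a surface lectin of NK cells in C57Bl/6 mice, removes NK cells from the circulation. In a normal lung, B cells, T cells and NK cells lie in the capillary bed and in the alveolar walls beside monocytes, interstitial macrophages, dendritic cells and neutrophils, whereas alveolar macrophages live on the air side. Survival factors such as BAFF, interleukin 15 and stem cell factor come from myeloid and structural cells.

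Every array set leukocyte RNA (Cy5) against a universal mouse reference RNA (Cy3), and each array value below is the log2 ratio of the sample to that reference. A log2 difference is the mean of the 2 RagKO saline arrays minus the mean of the 2 WT saline arrays, so -1 is a 2-fold lower level in RagKO. The files do not name the base of the deposited ratios; they were taken as log10 because of their range and format. The B cell gene Ms4a1 differed 104-fold between the groups on that reading and would differ 4.05-fold if the ratios were log2. The test was limma's moderated test across all 11597 genes with Benjamini-Hochberg adjustment, and a gene was called higher or lower at an adjusted p below 0.05. "Not passed" means only that a gene missed this threshold. The arrays measured mixed cells, so fewer cells of a type and less RNA per cell cannot be told apart for any gene below.

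Most genes differed between the groups. RagKO had 4292 genes higher (37% of those tested) and 3388 lower (29.2%), 66.2% in all, with a median log2 difference of 0.10 over all genes. At least 2-fold differences among the called genes numbered 1472 upward (12.7%) and 1214 downward (10.5%). The tail was longer on the side of loss, with 77 genes at least 8-fold lower and 21 at least 8-fold higher, and 21 against 1 past 16-fold. A list of genes therefore says little by the number called alone, and the counts below are read against 37% higher and 29.2% lower. Arrays of the groups did not overlap for 84.9% of genes, which with 2 against 2 arrays is a weak criterion.

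**Figure D1:**
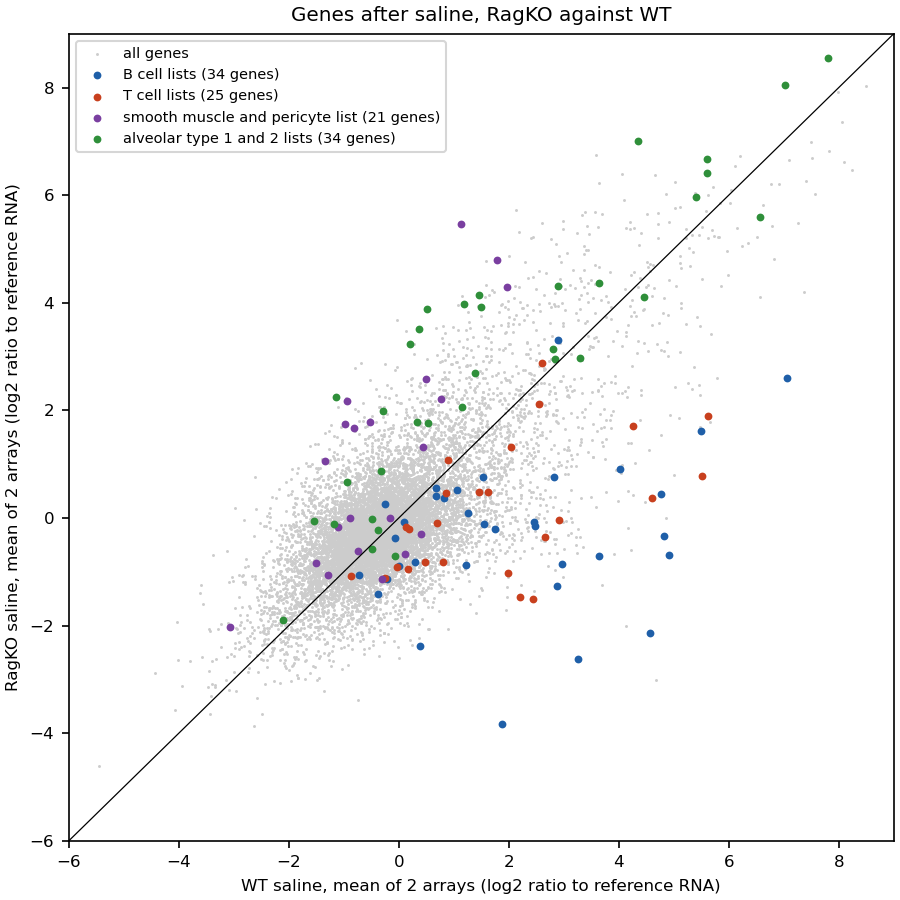
Mean log2 ratio to the reference RNA in RagKO saline (vertical axis, 2 arrays) against WT saline (horizontal axis, 2 arrays) for all genes in grey, with B cell, T cell, smooth muscle and pericyte, and alveolar epithelial lists in colour. The line marks equal levels. Most B and T cell genes lie below the line, down to Ms4a1 with a log2 difference of -6.70, and most smooth muscle and alveolar genes lie above it, up to Enpep with 4.34.

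Replicate arrays correlated across probes with r = 0.9901 in WT and 0.9781 in RagKO, and between the groups r was 0.6769 to 0.6882. The middle 50% of probes spanned 1.20 and 1.18 log2 units on the WT arrays and 1.03 and 1.01 on the RagKO arrays. Rn28s1, a ribosomal RNA, had array values of 3.67 and 3.71 in WT against 2.43 and 2.08 in RagKO, and its part in the results was not tested. Xist, the transcript that silences the X chromosome in females, stood at -0.04 and -0.18 in WT, next to -1.59 and -1.72 in RagKO and did not pass, although it did (adjusted p = 8.68e-06) when only the 4 saline arrays were fitted, and Eif2s3y on the Y chromosome was above the reference on all 4 arrays (2.32 and 2.27 against 2.90 and 2.60), not passed in the fit of 8 arrays and passed with the 4 saline arrays alone (0.45, adjusted p = 0.0116). Kdm5d, also on the Y chromosome, went the other way (0.56 and 0.42 against -0.43 and -0.19, adjusted p = 0.0110), a call lost without WT array 1 (-0.73) or RagKO array 1 (-0.68). No probe carried the symbol Rag1, so the deleted gene gives no check of the labels.

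The leukocyte label was checked against 18 genes of all white blood cells, of which 12 were lower, 2 higher and 4 did not pass. Ptprc, which encodes the common leukocyte antigen CD45, had array values of 2.04 and 1.98 in WT, compared with 1.60 and 1.50 in RagKO, a log2 difference of -0.46 (SE 0.11, adjusted p = 0.00293). All 4 arrays were thus well above the reference, with RagKO lower. The signalling adapters Tyrobp (3.32 and 3.56 against 3.24 and 3.52) and Fcer1g (3.28 and 3.25 against 3.98 and 3.39), which sit mainly in myeloid and NK cells, did not pass the test. Fcer1g (0.42) was called higher on the probe with its higher ratio, with the replicate number as a block and without RagKO array 2, where it was 0.71 (adjusted p = 0.00192). Laptm5, a lysosomal membrane protein of blood cells, read 4.83 and 4.89 on WT arrays against 0.04 and -0.04 on RagKO arrays, a difference of -4.86. Hcls1 (-1.96), the actin regulator gene Was (-1.75) and Coro1a (-1.48) were also lower, whereas the tetraspanin gene Cd53 was higher by 0.99. The mean over the list was 2.69 on each WT array and 1.87 and 1.81 on the RagKO arrays.

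B cell genes were lower. Of 11 measured genes of the B cell receptor and its coreceptors, 10 were lower and Cd24a did not pass (median log2 difference -2.53). Ms4a1, which encodes the surface protein CD20, read 4.51 and 4.64 on the WT arrays and -2.14 and -2.12 on the RagKO arrays. Tnfrsf13c, the receptor for the survival factor BAFF, stood at 4.85 and 4.81 in WT, next to -0.36 and -0.32 in RagKO (difference -5.17, SE 0.11, adjusted p = 9.05e-10). The array pairs lay far apart for both genes and close together within each group. Cd79b, a signalling chain of the receptor, went from 2.91 and 3.03 in WT to -0.87 and -0.86 in RagKO (-3.83). The inhibitory receptors Cd72 (-2.53) and Siglecg (-1.96) and the receptor Tnfrsf13b (-1.15) fell less, and the costimulatory receptor Cd40, shared with myeloid cells, fell by 0.76. Cd24a, shared with neutrophils and epithelium, had array values of 3.02 and 2.79 in WT, compared with 3.50 and 3.13 in RagKO. Its difference of 0.41 was called higher with only the 4 saline arrays fitted and under quantile normalization (0.43). Without RagKO array 2 it was 0.60.

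Of 14 genes of B cell receptor signalling, 10 were lower, 2 higher and 2 not passed (median -0.98). The adapter gene Blnk (-2.39), the kinase genes Prkcb (-2.57) and Btk (-1.93) and the lipid phosphatase gene Inpp5d (-1.81) led the falls. Vav3 (0.94) and Dapp1 (0.99), signalling proteins that other cells also use, were higher. Of 13 transcription factors of B cells, 11 were lower, 1 higher and 1 not passed (median -2.06). Pou2af1, the coactivator that works with octamer-binding factors, read 1.91 and 1.85 on WT arrays against -4.00 and -3.64 on RagKO arrays (-5.70), and Bach2, which holds back plasma cell differentiation, read 3.73 and 3.55 against -0.67 and -0.75 (-4.36). Ikzf3 (-4.32), Mef2c (-3.13), Bcl11a (-2.62), Foxo1 (-2.10) and Ebf1 (-1.66), a factor that specifies the B lineage, were lower as well. Bcl6, used in germinal centres, did not pass (0.67 and 0.68 against 0.31 and 0.51), and Id3 was higher by 0.52.

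Of 10 measured genes of plasma cells and antibody secretion, 7 were lower, none higher and 3 not passed (median -0.98). Ighm, the constant region of the IgM heavy chain, stood at 6.97 and 7.15 in WT, next to 2.58 and 2.64 in RagKO, so it remained above the reference in RagKO after a difference of -4.45. Jchain, which joins IgM and IgA subunits, read 3.34 and 3.17 against -2.68 and -2.56. Derl3 (-4.13) and Mzb1 (-2.77), endoplasmic reticulum proteins of antibody-secreting cells, fell too. Xbp1, a factor of all secretory cells, had array values of 0.08 and 0.09 in WT, compared with -0.21 and 0.05 in RagKO and did not pass, nor did Prdm1 and Sdc1. Prdm1 (-0.30) was called lower under median centring (-0.36), quantile normalization (-0.39) and the robust variance model, and with only the 4 saline arrays fitted. Immunoglobulin genes share sequence, so their single values are uncertain.

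**Figure D2:**
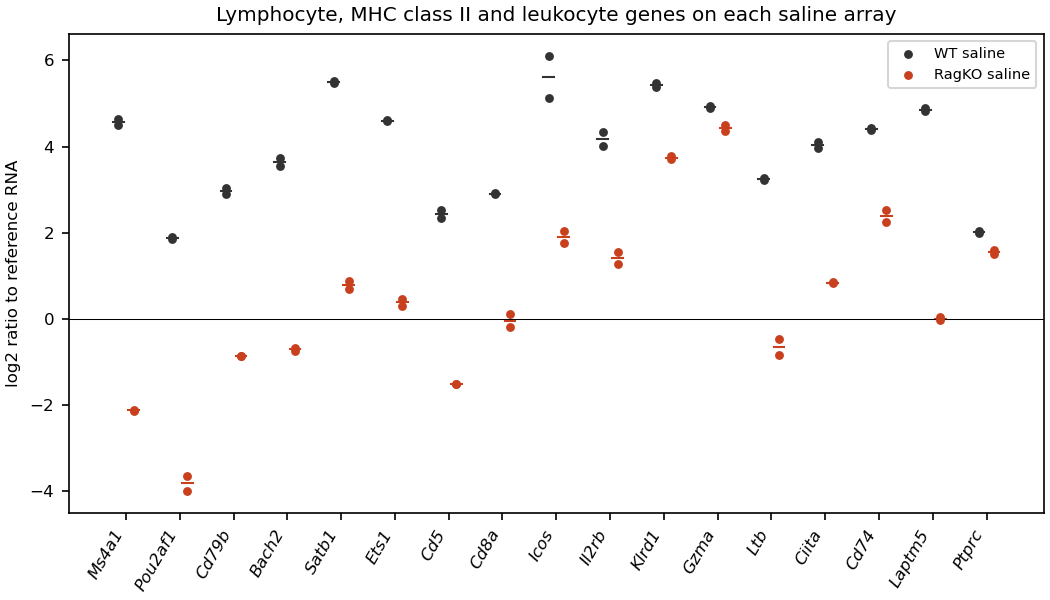
Log2 ratio to the reference RNA (vertical axis) of lymphocyte, MHC class II and general leukocyte genes on each of the 4 saline arrays, WT in black and RagKO in red; points are arrays and bars the mean of 2. The WT points lie above the RagKO points for all 17 genes, widely for Ms4a1 (4.51 and 4.64 against -2.14 and -2.12) and narrowly for Ptprc (2.04 and 1.98 against 1.60 and 1.50).

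T cell genes were lower as well. Of 12 genes of the T cell receptor complex, its coreceptors and costimulators, 11 were lower and Tnfrsf18 did not pass (median -2.08). Cd5 read 2.34 and 2.52 on WT arrays against -1.51 and -1.52 on RagKO arrays, a difference of -3.95 (SE 0.12, adjusted p = 1.19e-08). Cd8a, the coreceptor of cytotoxic T cells, read 2.90 and 2.92 against -0.20 and 0.12. Icos, a costimulator of activated T cells and group 2 innate lymphoid cells, read 6.11 and 5.14 against 1.76 and 2.03, so it stayed above the reference in RagKO. Cd2, shared with NK cells, also stayed above it (4.21 and 4.29 against 1.71 and 1.71). Tnfrsf4 (-3.00), Thy1 (-1.62) and Cd3g (-1.11), a chain of the receptor complex, were lower.

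Of 10 genes of T cell receptor signalling, 7 were lower and 3 not passed (median -1.18). Gimap6, a GTPase of lymphocyte survival, stood at 5.46 and 5.49 in WT, next to 2.20 and 2.36 in RagKO (-3.20). The adapter gene Lat (-1.71), the kinase genes Txk (-1.68), Prkcq (-1.28) and Zap70 (-1.08) and the lipid kinase gene Dgka (-1.54) were lower. Of 13 T cell transcription factors, 9 were lower and 4 not passed (median -0.87). Satb1, a chromatin organiser of thymocytes and T cells, read 5.48 and 5.53 against 0.70 and 0.87 (-4.72), Ets1 read 4.62 and 4.59 against 0.29 and 0.47 (-4.22), and Lef1 read 2.07 and 1.90 against -1.00 and -1.03 (-3.00). Bcl11b (-1.29) and Gata3 (-0.87), which also act in innate lymphoid cells, fell less. Rora and Id2, needed for innate lymphoid cells, did not pass, and the probes of Id2 went opposite ways (-0.47 and 1.04).

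Of 11 NK receptors, 8 were lower, 1 higher and 2 not passed (median -0.85). Il2rb, the receptor chain for interleukins 2 and 15, had array values of 4.33 and 4.01 in WT, compared with 1.54 and 1.26 in RagKO (-2.77), and Klrd1, the partner of the NKG2 receptors, read 5.38 and 5.48 against 3.70 and 3.77 (-1.69). Klrb1c, the gene of the NK1.1 antigen against which the antibody is directed, read 2.79 and 2.80 against 1.87 and 2.01 (-0.85, SE 0.16, adjusted p = 9.32e-04). All these genes were lower, yet each stayed above the reference on both RagKO arrays. Klra7 (-1.95) and Klra8 (-1.14), Ly49 receptors that share sequence with each other, were lower, and Klrk1 did not pass. Klrb1b was higher by 0.48, a call lost without WT array 1 (0.39) or RagKO array 1 (0.43). After silica 9 of the 11 were lower, with a median of -2.56 against -0.85 after saline. Over all genes 26.4% were lower and 33.7% higher after silica. This difference between exposures was not tested for the list.

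Of 12 genes of cytotoxic granules and effectors, 8 were lower and 4 higher (median -0.62). Ctsw, a cathepsin of NK and cytotoxic T cells, read 4.00 and 4.13 on WT arrays against 0.91 and 1.06 on RagKO arrays (-3.08), Ccl5 read 2.37 and 2.28 against -0.29 and -0.09 (-2.52), and the chemokine gene Xcl1 had a log2 difference of -2.04. The granzyme genes stayed high in RagKO. Gzma stood at 4.89 and 4.94 in WT, next to 4.35 and 4.49 in RagKO (-0.49, adjusted p = 0.0331), and Gzmb 4.21 and 4.07 against 3.48 and 3.44 (-0.68). Nkg7, a granule membrane protein, fell by 1.87 and still read 2.97 and 3.06 in RagKO. Among the genes higher in RagKO were Ctsc (1.09), which activates granule proteases in myeloid cells too, and the serpin genes Serpinb9 (1.33) and Serpinb6b (2.78). The Gzma call was lost when any 1 saline array was left out (-0.56 to -0.42) and under quantile normalization (-0.34). The Gzmb call was lost without WT array 1 (-0.61), RagKO array 1 (-0.70) or RagKO array 2 (-0.65), and each of these omissions left 5 lower genes in the list.

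Some lymphocyte genes had no value on 1 RagKO saline array and so were not tested. Among probes with 1 gene symbol, 1226 lacked a value on at least 1 of the 8 arrays. Of these, 654 lacked it on a RagKO saline array and had it on both WT saline arrays, against 198 the other way round. Fcrla, a B cell protein, read 6.27 and 6.16 in WT and 0.31 on the RagKO array that had a value. Cd3d, a chain of the T cell receptor complex, read 5.88 and 5.76 in WT and 0.15 in RagKO, and Prf1, the pore-forming perforin, 2.60 and 2.72 in WT and 0.45 in RagKO. Not every such probe was lower in RagKO, and near the reference in both groups were Cd3e (0.11 and -0.09 against 0.14), Cd4 (0.23 and 0.34 against 0.26) and a probe of Ikzf2 (-0.35 and -0.12 against 0.39). Ikzf2 itself was tested through another probe and was called lower (-0.98, adjusted p = 0.00244), so its probes disagreed. Bank1 (3.92 and 3.96 against 0.41), Cd22 (3.74 and 2.99 against 0.47), both of B cell signalling, and the plasma cell receptor gene Tnfrsf17 (2.40 and 2.45 against -0.34) had lower values on the RagKO array. In the other direction Gja5, a gap junction protein of arteries, read 0.70 on a WT array and 3.57 and 3.70 in RagKO, and Dnah5, a dynein of motile cilia, 0.54 and then 3.30 and 2.30. When missing silica values were allowed, 138 genes joined the test, and Cd8b1, partner of Cd8a, had array values of 7.32 and 7.39 in WT, compared with 0.21 and 0.00 in RagKO (-7.24).

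Genes of group 2 innate lymphoid cells and gamma delta T cells were sparsely covered, with 7 measured, 4 lower, 1 higher and 2 not passed (median -0.71). Cd163l1, a scavenger receptor of gamma delta T cells, read 5.76 and 5.83 on WT arrays against 2.41 and 2.79 on RagKO arrays (-3.19). Il7r, the interleukin 7 receptor of lymphocytes, read 3.73 and 4.73 against 2.78 and 0.01, so its difference of -2.83 has an SE of 0.67, the RagKO arrays disagree, and without RagKO saline array 2 it was -1.45. Its call was lost under the robust variance model with a trend (adjusted p = 0.0653). Arg1, expressed by lung group 2 innate lymphoid cells and by alternatively activated macrophages, read 3.41 and 3.45 against 1.06 and 1.38 (-2.21). Il4 was higher by 1.07, and Il17rb did not pass.

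Receptors of lymphocyte traffic were mostly lower, 9 of 13, with 2 higher and 2 not passed (median -1.66). Ccr6 stood at 4.57 and 4.53 in WT, next to 1.24 and 1.28 in RagKO (-3.29), Cxcr3, the receptor of effector T and NK cells, 4.29 and 4.30 against 0.83 and 1.20 (-3.28), and the lymph node homing receptor Ccr7 5.00 and 5.04 against 2.28 and 2.60 (-2.58). Each of these genes was lower on both RagKO arrays and still above the reference there. P2ry10 (-2.24), the oxysterol receptor gene Gpr183 (-2.10), the egress receptor gene S1pr1 (-1.66) and the integrin gene Itgb7 (-2.53) were lower. Cxcr4, a receptor that myeloid cells also carry, was higher by 1.23.

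Ligands that lymphocytes respond to were examined next. Of 10 ligands and adhesion molecules that attract or organise lymphocytes, 4 were higher, 3 lower and 3 not passed (median -0.17). The lower ones included the lymphotoxin genes made by lymphocytes themselves, with Ltb at 3.26 and 3.23 in WT against -0.47 and -0.84 in RagKO (-3.90) and Lta at 2.50 and 2.55 against 0.06 and -0.05 (-2.52). The higher ones included the stromal chemokine gene Ccl19 (0.93), Ccl21a (1.01), which lies in a family of near-identical copies and is uncertain, Cxcl12 (0.51, but -0.18 on the probe with its higher ratio) and the adhesion molecule gene Vcam1, at -1.98 and -1.94 in WT against 0.59 and 0.32 in RagKO (2.41). Cxcl13, the B cell chemokine, fell by 0.61.

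Of 12 cytokines that lymphocytes and other leukocytes use, 9 were higher, 1 lower and 2 not passed, with a median of 0.90 against 0.10 over all genes. Tnfsf13b, which encodes BAFF, had array values of -0.02 and 0.21 in WT, compared with 1.42 and 1.65 in RagKO (1.44, SE 0.14, adjusted p = 7.76e-06). Another Tnfsf13b probe, left out for missing values, read 0.22 on WT array 2 and 0.31 on RagKO array 2. Il33, an alarmin of alveolar epithelium and stroma, read -1.11 and -1.15 against 2.13 and 2.39 (3.39), and Kitl, stem cell factor, -1.35 and -1.41 against 0.77 and 0.66 (2.09). All RagKO arrays were above all WT arrays for these genes. Il18 (2.09), Il6 (1.91), Csf2 (1.02), Il15 (0.77) and Il34 (0.73) were higher, Flt3l was lower by 0.40, and Csf1 did not pass (-1.90 and -1.88 against -1.64 and -1.61). Of 14 receptors for these cytokines, 9 were lower, 3 higher and 2 not passed (median -1.05). Without WT array 1 only 1 was called higher. The higher ones were Kit (1.08), the receptor for stem cell factor on mast cells and progenitors, Csf1r (0.55) and Il15ra (0.38), and the lower ones included Csf2ra (-1.60), the thymic stromal lymphopoietin receptor gene Crlf2 (-1.54), Il4ra (-1.24) and Csf3r (-1.23). Some of these calls rested on single arrays. Csf1r lost its call without WT array 1 (0.32), RagKO array 1 (0.47) or RagKO array 2 (0.63), Flt3l without WT array 1 (-0.38), WT array 2 (-0.42) or RagKO array 2 (-0.27), and Il15ra without WT array 1 (0.27) or RagKO array 1 (0.32). The structural lists described below, whose cells make several of these cytokines, were also higher, and their part in the result was not tested.

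**Figure D3:**
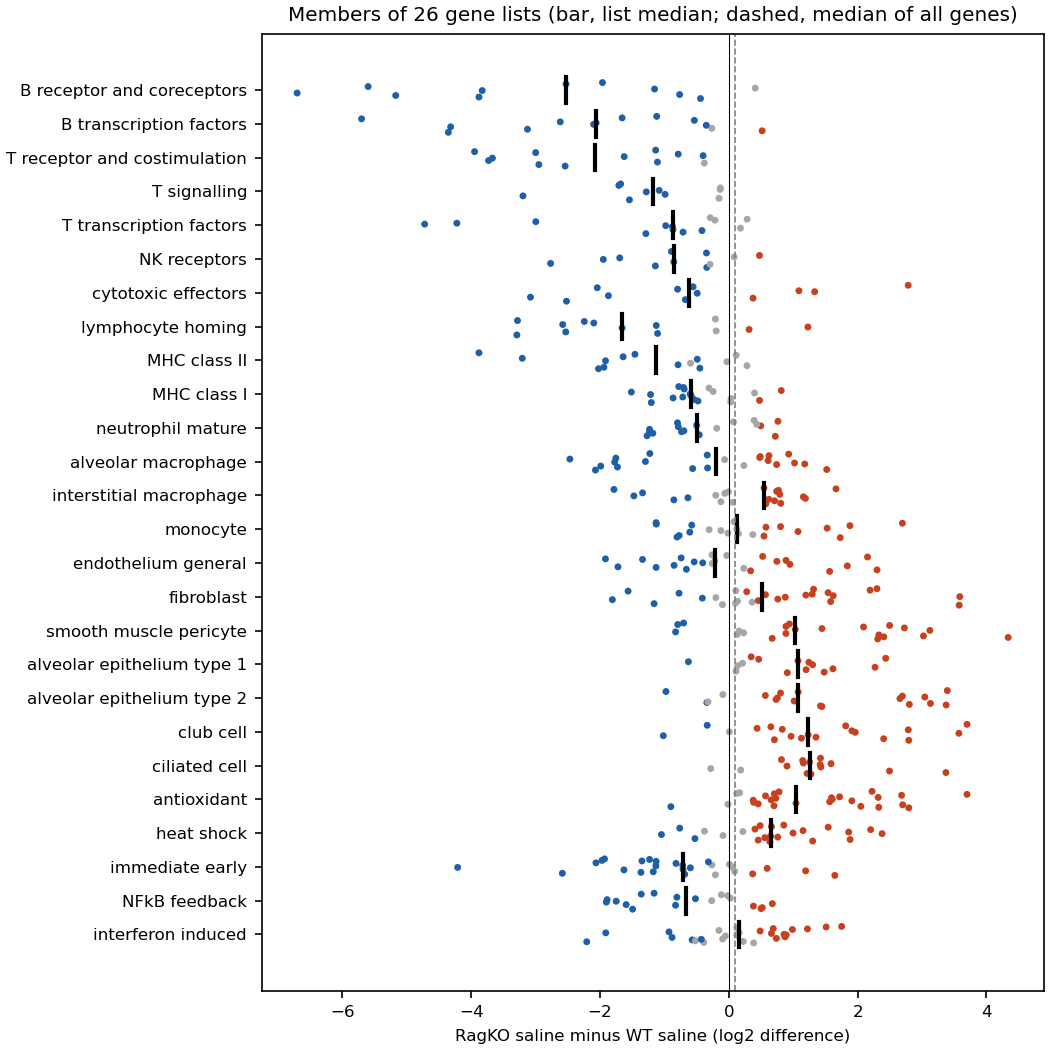
Log2 difference of RagKO saline minus WT saline (horizontal axis) for each measured member of 26 gene lists. Points are genes, red where called higher, blue where called lower and grey where not passed; black bars are list medians and the dashed line is the median of all genes, 0.10. List medians run from -2.53 for the B cell receptor and its coreceptors to 1.25 for ciliated cells.

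MHC class II genes, which present peptide to helper T cells and are made by B cells, dendritic cells and macrophages, were lower. Of 14 measured, 10 were lower, none higher and 4 not passed (median -1.12). Class II promoters carry a conserved module of X and Y boxes on which the transactivator CIITA acts, and the stretches of 4 members are shown because 3 of them belong to the lower genes and H2-Eb1 did not pass. Capitals mark the Y box core ATTGG or its reverse complement CCAAT. The sequences are RefSeq's for build GRCm38.p6, read 5′ to 3′ on the strand of the gene, from chr17:34287827-34287941 on the minus strand for H2-Aa and, on the plus strand, chr17:34092266-34092380 for H2-Oa, chr17:34153060-34153174 for H2-DMb1 and chr17:34305738-34305852 for H2-Eb1.
H2-Aa: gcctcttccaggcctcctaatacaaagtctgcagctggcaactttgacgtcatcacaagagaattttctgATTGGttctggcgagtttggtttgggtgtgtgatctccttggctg
H2-Oa: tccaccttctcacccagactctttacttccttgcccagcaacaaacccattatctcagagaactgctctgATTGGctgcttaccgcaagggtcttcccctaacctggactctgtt
H2-DMb1: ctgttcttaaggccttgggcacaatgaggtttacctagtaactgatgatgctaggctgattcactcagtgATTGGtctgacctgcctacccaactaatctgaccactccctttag
H2-Eb1: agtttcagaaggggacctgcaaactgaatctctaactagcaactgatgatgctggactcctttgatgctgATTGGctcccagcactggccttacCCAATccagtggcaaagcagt
Of the 14 genes in the class II list, 10 had a promoter in the table, as windows from 250 bases before to 50 after an annotated start. The Y box core on either strand stood in at least 1 window of 8 of these, among them the protease gene Lgmn and the regulators Rfx5 and Rfxank, and for H2-DMa only in the second window. It stood in 41.1% of all 27025 genes there. Such a match is a description and not evidence of binding.

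The genes with these promoters differed in how far they fell. H2-Oa, a chaperone chain found in B cells, read 5.47 and 5.50 on WT arrays against 1.62 and 1.59 on RagKO arrays, a difference of -3.88. H2-Aa, a peptide-presenting chain of all class II cells, read 5.91 and 6.04 against 4.43 and 4.62 (-1.46), and H2-DMb1, part of the peptide-loading factor, 4.69 and 4.84 against 3.14 and 3.11 (-1.64). H2-Eb1 read 6.27 and 5.35 against 5.45 and 4.99 and did not pass, with overlapping arrays. Its difference of -0.59 was called under median centring, with the replicate number as a block and without WT array 2, where it was -1.06 (adjusted p = 0.00159). Ciita itself stood at 3.98 and 4.12 in WT, next to 0.83 and 0.85 in RagKO (-3.21), whereas Rfx5 and Rfxank, members of the constitutive complex on these promoters, did not pass. The lysosomal protease gene Lgmn did not pass.

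Of 19 genes of class I presentation, 12 were lower, 2 higher and 5 not passed (median -0.59). B2m, the light chain of every class I molecule, had array values of 2.29 and 2.18 in WT, compared with 1.05 and 1.00 in RagKO (-1.20), and H2-K1 2.37 and 2.20 against 1.02 and 1.12 (-1.22). The chaperone gene Calr (-1.51), the peptide transporter gene Tap2 (-0.70) and the immunoproteasome genes Psmb8 (-0.69) and Psmb9 (-0.59) were lower. H2-Q1 was higher by 0.81. On the silica arrays 10 of the 19 were higher in RagKO than in WT, none lower and the median was 0.43. The shares over all genes there were 33.7% higher and 26.4% lower. The difference between exposures was not tested for the list.

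Dendritic cell genes were mixed. Of 13 genes of conventional dendritic cells, 6 were lower, 4 higher and 3 not passed (median -0.24). Itgax, which encodes CD11c and is shared with alveolar macrophages, read 4.87 and 4.79 on WT arrays against 3.02 and 3.18 on RagKO arrays (-1.73), and the lectin gene Clec10a fell by 1.23. The costimulator genes Cd80 (1.02) and Cd86 (0.89) and the chemokine gene Ccl17 (0.91) were higher. A Cd80 probe left out for a missing value read 1.09 and 1.26 in WT against 1.34 on RagKO array 2. Of 9 plasmacytoid dendritic cell genes, 2 were lower, 2 higher and 5 not passed (median -0.20). The lower ones were Ly6d, which B cell precursors also express, and the lineage factor gene Tcf4 (-0.78), and the higher ones were Smim5 (1.04) and Cox6a2 (2.12), a muscle form of a cytochrome oxidase subunit.

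Of 22 alveolar macrophage genes, 11 were lower, 9 higher and 2 not passed (median -0.20). Marco, a scavenger receptor for particles, stood at 6.57 and 6.56 in WT, next to 4.09 and 4.11 in RagKO (-2.47), the cholesterol exporter gene Abcg1 3.58 and 3.44 against 1.42 and 1.46 (-2.07), and the chitinase-like Chil3 8.27 and 8.21 against 6.31 and 6.62 (-1.77). The protease gene Ctsk (-1.75) and Plet1 (-1.29) fell with them. Among lipid handling genes Lpl was at 0.31 and 0.13 in WT against 1.86 and 1.62 in RagKO (1.52) and Fabp4 at 3.52 and 3.37 against 4.39 and 4.37 (0.93). Mrc1, the mannose receptor, did not pass (4.62 and 4.42 against 4.74 and 4.77).

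Interstitial macrophage genes were more often higher, 11 of 21, with 5 lower and 5 not passed (median 0.55). The complement C1q genes fell together, with C1qb at 3.45 and 3.63 in WT against 1.87 and 1.64 in RagKO (-1.78), C1qc at 4.66 and 4.74 against 3.06 and 3.39 (-1.47) and C1qa at 2.88 and 2.86 against 1.94 and 2.08 (-0.85). Ms4a7 (-1.34) fell too. Selenop, a selenium carrier, rose by 1.66, the hyaluronan receptor gene Lyve1, shared with lymphatic endothelium, by 1.16, and the folate receptor gene Folr2 by 0.71. Cd14 (3.83 and 3.88 against 4.20 and 3.63) and Apoe did not pass.

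The complement list held 17 measured genes, 6 lower, 6 higher and 5 not passed (median 0.20). Outside C1q, the component genes C1s1 (1.63), C2 (1.61), C1ra (1.08) and Hc (1.01) and the inhibitor genes Cd59a (2.47) and Serping1 (1.22) were higher. Of 21 scavenger, lectin and Fc receptors, 11 were higher, 5 lower and 5 not passed (median 0.50). The oxidised lipid receptor gene Cd36 had array values of 1.45 and 1.47 in WT, compared with 4.10 and 4.21 in RagKO (2.69), Msr1 rose by 1.37 and the collectin gene Colec12 by 1.48. The Fc receptor gene Fcgr3 (0.86) rose, while the lipoprotein receptor gene Scarb1 (-1.55) fell. Without RagKO array 2 the lower genes of this list numbered 3.

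Of 21 monocyte genes, 8 were higher, 6 lower and 7 not passed (median 0.12). Ccr2, the receptor by which inflammatory monocytes leave the marrow, read 5.05 and 4.78 on WT arrays against 5.39 and 5.60 on RagKO arrays (0.58), and the coagulation gene F13a1 2.68 and 2.67 against 4.58 and 4.53 (1.88). Adgre4 (1.73), Ifitm3 (1.53) and Vcan (1.07) were higher. Ccr2 lost its call without WT array 2 (0.44) or RagKO array 2 (0.47). Nr4a1, needed for patrolling monocytes (-1.13), and the integrin gene Itgal, shared with lymphocytes (-1.13), were lower. Lyz2, a lysozyme of all monocytes, macrophages and neutrophils, did not pass, at 5.22 and 5.21 in WT against 5.06 and 5.34 in RagKO.

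Of 11 neutrophil granule genes, 6 were lower, 2 higher and 3 not passed (median -0.34). S100a8, among the most abundant neutrophil transcripts, stood at 7.85 and 8.12 in WT, next to 8.10 and 7.73 in RagKO and did not pass. The protease inhibitor gene Slpi (-1.76) and the gelatinase gene Mmp9 (-1.29) were lower, and lactoferrin, Ltf (1.64), and the collagenase gene Mmp8 (0.79) were higher. Of 17 genes of mature neutrophils, 10 were lower, 3 higher and 4 not passed (median -0.50). Stfa2 (-1.27), Stfa1 (-1.23), which share sequence with each other, the G-CSF receptor gene Csf3r (-1.23) and Padi4 (-1.18), which citrullinates histones, led the falls. The chemokine receptor gene Cxcr2 did not pass, and the lectin gene Clec4d rose by 0.72. Lower granule genes numbered 3 without WT array 2 and 2 without RagKO array 1, and higher mature genes 5 without RagKO array 2.

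Of 8 genes of eosinophils, basophils and mast cells, 4 were higher, 1 lower and 3 not passed (median 0.46). The mast cell protease gene Cpa3 rose by 1.07 and the factor gene Gata2 fell by 1.02, whereas Cma1 and Ear6 did not pass. Of 9 red cell and platelet genes, 4 were lower, 4 higher and 1 not passed (median -0.35). The haemoglobin genes Hba-a1 (-1.78), Hba-a2 (-1.36), a near-identical copy of it, and Hbb-bt (-1.00) and the haem synthesis gene Alas2 (-0.59) were lower. The platelet genes Ppbp (1.36), Gp9 (0.91), Treml1 (0.64) and Pf4 (0.62) were higher.

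Genes of the alveolar epithelium were higher in most cases. Of 15 genes of type 1 cells, 11 were higher, 1 lower and 3 not passed (median 1.07). Cldn18, a tight junction protein of lung epithelium, had array values of 1.49 and 1.48 in WT, compared with 3.80 and 4.04 in RagKO (2.44, SE 0.13, adjusted p = 1.99e-07), and Gprc5a -0.24 and -0.34 against 1.91 and 2.06 (2.27). Cav1 (1.62), shared with endothelium, Sema3e (1.48) and the water channel gene Aqp5 (1.24) were higher, and Vegfa had a log2 difference of -0.63. Of 19 genes of type 2 cells, 15 were higher, 2 lower and 2 not passed (median 1.08). Lamp3, a protein of surfactant lamellar bodies, read -0.06 and 0.46 on WT arrays against 3.21 and 3.28 on RagKO arrays (3.04), and the lipid enzyme gene Lpcat1 0.38 and 0.37 against 3.64 and 3.37 (3.13). Cxcl15 (2.66), Slc34a2 (2.80) and Abca3 (1.45) rose, while Sftpc, a surfactant protein specific to type 2 cells, stood at 6.40 and 6.74 in WT, next to 5.77 and 5.42 in RagKO and fell by 0.98. Sftpb did not pass, and the collectin genes Sftpa1 (0.57) and Sftpd (0.75) rose.

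Airway epithelium was read from further lists. Of 19 genes of club cells, the secretory cells of the small airways, 16 were higher, 2 lower and 1 not passed (median 1.23). The glutathione transferase gene Gsta3 had array values of 0.04 and -0.09 in WT, compared with 3.70 and 3.64 in RagKO (3.70), and Aldh1a1 2.39 and 2.42 against 5.54 and 4.85 (2.79). Scgb1a1, the secretoglobin that defines club cells, read 5.62 and 5.77 against 5.48 and 5.24 and fell by 0.34 (adjusted p = 0.0402), a call lost without either WT array or RagKO array 2 (-0.41 to -0.22), under quantile normalization (-0.25) and under the robust variance model, and Scgb3a1 did not pass. Of 15 genes of ciliated cells, 13 were higher, none lower and 2 not passed (median 1.25). Mlf1 (2.49), Cfap52 (1.59), the tektin genes Tekt2 (1.43) and Tekt4 (1.21) and Dync2li1, a subunit of the motor of ciliary transport (-2.65 and -2.58 against 0.73 and 0.78), were higher, but Foxj1, the regulator of ciliated cells, did not pass (1.25 and 1.11 against 0.80 and 1.00). Of 19 junction and keratin genes, 12 were higher, 2 lower and 5 not passed (median 0.86). Cdh1, which encodes E-cadherin, read 2.07 and 1.95 against 4.78 and 4.98 (2.87), F11r rose by 2.23, Krt15 by 1.99 and Epcam by 1.27, and Cldn3 fell by 1.19.

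**Figure D4:**
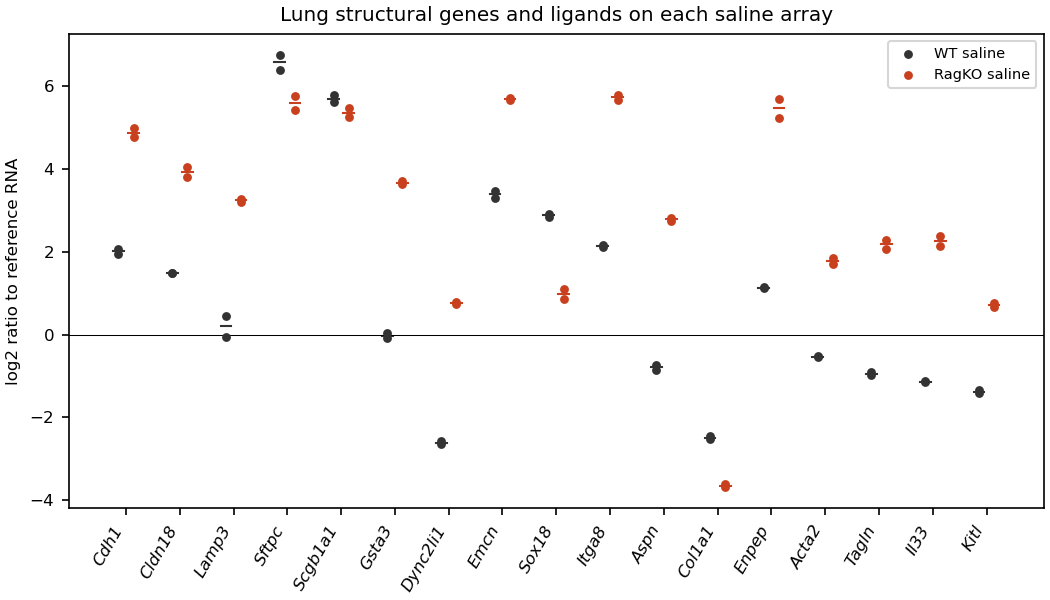
Log2 ratio to the reference RNA (vertical axis) of lung epithelial, endothelial, fibroblast and muscle genes and the ligands Il33 and Kitl on each saline array, WT in black and RagKO in red; points are arrays and bars the mean of 2. Most RagKO points lie above the WT points, as for Cdh1 (4.78 and 4.98 against 2.07 and 1.95), whereas Sftpc, Scgb1a1, Sox18 and Col1a1 lie below.

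Of 23 endothelial genes, 9 were higher, 9 lower and 5 not passed (median -0.22). Emcn, a sialomucin of capillary and venous endothelium, read 3.47 and 3.31 on WT arrays against 5.66 and 5.72 on RagKO arrays (2.30), and Ecscr rose by 2.15, Erg by 1.84 and Pecam1 by 0.89. In the other direction Sox18 read 2.92 and 2.85 against 0.85 and 1.09 (-1.92), and Plvap (-1.72), Eng (-1.34) and Cldn5 (-1.13) fell. Calcrl stood at 3.02 and 3.79 in WT, next to 4.84 and 5.11 in RagKO (1.56). Of 18 genes of endothelial subtypes, 9 were higher, 5 lower and 4 not passed (median 0.35). The lymphatic genes Mmrn1 (2.98) and Lyve1 were higher, and the capillary genes split, with Gpihbp1 up by 1.15 and Car4, shared with alveolar macrophages, with a log2 difference of -1.99. Tbx3, a factor of capillary endothelium and mesenchyme, read 2.31 and 2.23 against -0.68 and -0.54 (-2.88). Lower subtype genes numbered 2 without WT array 2 and 3 without RagKO array 1 or RagKO array 2.

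Of 26 fibroblast genes, 15 were higher, 5 lower and 6 not passed (median 0.51). Itga8, an integrin of alveolar fibroblasts, had array values of 2.12 and 2.16 in WT, compared with 5.78 and 5.67 in RagKO (3.59), and Aspn, a small matrix proteoglycan, -0.73 and -0.86 against 2.74 and 2.82 (3.58). Mgp (2.30), Inmt (2.19), Dpt (1.62), Pdgfra (1.58), Lum (1.54) and Dcn (1.32) rose as well. Col3a1 (-1.81), Col1a1 (-1.16) and Col1a2 (-0.77, a call lost at -0.73 without WT array 2 and -0.72 without RagKO array 1) fell, and their values were below the reference on all arrays, as for Col1a1 at -2.52 and -2.45 against -3.62 and -3.68. Pi16, a marker of adventitial fibroblasts, fell by 1.56. Without WT array 2 or RagKO array 1 the lower genes numbered 3.

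Smooth muscle, pericyte and mesothelial genes were higher in 15 of 21 cases, lower in 3 and not passed in 3 (median 1.03). Enpep, an aminopeptidase of pericytes that had the largest rise of all genes, read 1.14 and 1.11 on WT arrays against 5.24 and 5.69 on RagKO arrays, a difference of 4.34 (SE 0.19, adjusted p = 8.04e-08) or 20.2-fold. The contractile genes Tagln (-0.97 and -0.91 against 2.30 and 2.06), Myh11 (1.73 and 1.83 against 4.77 and 4.84) and Acta2 (-0.54 and -0.52 against 1.86 and 1.70) rose by 3.12, 3.02 and 2.31. Mylk, the kinase of myosin light chain, which is outside the list, rose by 3.18. Against them, Notch3 (-0.83) and Cspg4 (-0.79), receptors that mark pericytes, were lower, as was the mesothelial gene Lrrn4 (-0.70), whereas Msln (1.03) and Upk3b (0.89) of the same cells were higher. Of 11 cardiac and striated muscle genes, 6 were higher, 2 lower and 3 not passed (median 0.34). Actc1 (2.85), Myh7 (2.77) and Myl7 (1.44) rose and Myl4 fell by 1.02.

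Immediate early genes switch on within minutes of a stimulus. Of 27, 18 were lower, 4 higher and 5 not passed (median -0.72). Dusp2, a phosphatase of activated lymphocytes and myeloid cells, stood at 4.97 and 5.04 in WT, next to 1.01 and 0.57 in RagKO (-4.21). Junb read 2.01 and 1.94 against -0.51 and -0.71 (-2.58), and Jund (-2.06), Ier5 (-1.97), Klf4 (-1.93) and Fosb (-1.36) fell with it. Jun did not pass (-0.67 and -0.72 against -0.60 and -0.68), nor did Ier2, and Atf3, a stress factor, rose by 1.65. Of 18 NF-kB subunits and targets, 10 were lower, 4 higher and 4 not passed (median -0.66). The noncanonical subunit gene Relb (-1.90), its activating kinase gene Map3k14 (-1.75) and the inhibitor gene Nfkbie (-1.89) fell, and Rela (-0.20 and -0.17 against -0.19 and -0.22) did not pass. Higher immediate early genes numbered 2 without WT array 2 or RagKO array 1, and higher NF-kB genes 1 in either case and 2 without RagKO array 2. Several of these genes are strong in lymphocytes, and the part of the lower lymphocyte lists in these counts was not tested.

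Among 22 Toll-like receptor and inflammasome genes, 7 were lower, 5 higher and 10 not passed (median -0.10). Tlr1 (-2.26) and the B cell and plasmacytoid cell receptor gene Tlr9 (-1.32) fell, Tlr4 (0.96), its partner Ly96 (0.90) and Tlr2 (0.57) rose, and Nlrp3, the sensor of crystals, had array values of 0.17 and 0.16 in WT, compared with 0.16 and 0.19 in RagKO.  Of 27 interferon-induced genes, 11 were higher, 6 lower and 10 not passed (median 0.16). Rsad2 read 1.40 and 1.48 against 3.27 and 3.11 (1.75), Ifit2 -1.64 and -1.37 against -0.02 and 0.03 (1.51) and Usp18 rose by 1.22, while the interferon signalling genes Stat2 (-1.91) and Irf9 (-0.93) and the nucleic acid sensor gene Zbp1 (-2.21) fell. On the silica arrays 22 of the 27 were higher in RagKO than in WT and 1 was lower (median 1.06). The shares over all genes there were 33.7% higher and 26.4% lower. The difference between exposures was not tested for the list.

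Heat shock and chaperone genes were higher in 17 of 23 cases, lower in 3 and not passed in 3 (median 0.65). The promoter stretches of Hspb1, which rose, and Hspa1b, which fell, are shown because both hold a heat shock element. Capitals mark the element GAANNTTC, which is the same on both strands, in RefSeq sequence of build GRCm38.p6 at chr5:135887732-135887869 on the plus strand and chr17:34959295-34959412 on the minus strand, each 5′ to 3′ along the gene.
Hspb1: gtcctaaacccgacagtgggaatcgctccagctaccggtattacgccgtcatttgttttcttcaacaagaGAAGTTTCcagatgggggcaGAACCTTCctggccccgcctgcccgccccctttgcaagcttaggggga
Hspa1b: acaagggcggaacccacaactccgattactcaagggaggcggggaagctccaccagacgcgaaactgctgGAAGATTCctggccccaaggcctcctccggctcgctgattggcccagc
This element stood in at least 1 window of 11 of the 18 heat shock genes in the table and in 9.04% of all genes there. Hspb1, a small chaperone, read -0.01 and 0.04 on WT arrays against 0.89 and 1.14 on RagKO arrays (1.00), whereas Hspa1b, the inducible chaperone HSP70, read 4.35 and 4.33 against 3.29 and 3.30 (-1.05). Hspa1a, its near-identical neighbour, fell by 0.76, so these genes may share signal. Dnaja1 (2.38), Dnajb4 (2.20), Hspb8 (1.88), Hsp90aa1 (1.86), Cryab (1.54) and the endoplasmic reticulum chaperone gene Hspa5 (1.15) rose.

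Antioxidant and glutathione genes were higher in 23 of 27 cases, lower in 1 and not passed in 3 (median 1.04). Gsta1 stood at -2.35 and -2.26 in WT, next to 0.23 and 0.56 in RagKO (2.70), Mgst1, a membrane-bound transferase, -0.17 and -0.26 against 2.42 and 2.51 (2.68), and the catalase gene Cat rose by 2.32. Gpx2 (2.05), Nqo1 (2.22) and Prdx1 (1.59) rose, Txnrd1 fell by 0.90, and Sod1 did not pass, with probes that went opposite ways (-0.54 and 0.52). The Gsta and Gstm genes share sequence within each family. Many of these enzymes are abundant in club and alveolar type 2 cells, whose list means went from 3.05 and 3.10 in WT to 4.51 and 4.48 in RagKO and from 3.07 and 3.15 to 4.53 and 4.55, and their part in the result was not tested.

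Glycolysis genes showed no common direction, with 9 of 21 lower, 6 higher and 6 not passed (median -0.07). Fbp1, the gluconeogenic phosphatase, had array values of 4.20 and 4.13 in WT, compared with -0.19 and -0.18 in RagKO (-4.35), and the lactate exporter gene Slc16a3 (-1.96) and hexokinase gene Hk3 (-1.23) fell, while Ldhb (3.57) and Ldha (1.04) rose. Of 35 oxidative phosphorylation subunits, 20 were higher, 7 lower and 8 not passed (median 0.42). Atp5l (2.43), Cycs (1.71) and Ndufb5 (1.51) rose, and Cyc1 (-1.41) and Atp5d (-1.26) fell. Of 30 ribosomal proteins, 7 were higher, 8 lower and 15 not passed (median -0.05), from Rpl12 at -1.36 to Rpl4 at 1.09. Cell cycle genes were lower in part, with 14 of 29 DNA replication genes lower, 1 higher and 14 not passed (median -0.24), and 14 of 25 mitosis genes lower, 4 higher and 7 not passed (median -0.43). Ratios of both lists were low, with DNA replication means of -1.4 and -1.39 in WT against -1.78 and -1.73 in RagKO. When the lowest 20% of genes by ratio were left out of the test, lower genes numbered 1 and higher genes 0 in each list. Pold1 (-1.84), Cdt1 (-1.24), Mki67 (-1.04) and Birc5 (-1.07) fell, and Pcna (1.65) and Plk1 (0.94) rose. Of 15 Bcl-2 family and death receptor genes, 5 were higher, 4 lower and 6 not passed (median -0.02). The survival gene Bcl2, which lymphocytes depend on, read 1.39 and 1.46 against -0.09 and -0.14 (-1.54), and the death-promoting Pmaip1 0.88 and 0.73 against 3.34 and 2.91 (2.32). Higher glycolysis genes numbered 2 without WT array 1, and higher mitosis genes 2 without WT array 1, WT array 2 or RagKO array 2.

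Outside the lists, the largest rises after those named above included Rnase4, a secreted ribonuclease (0.07 and 0.18 in WT against 3.62 and 3.34 in RagKO; 3.35), the keratin gene Krt23 (3.19), the chondroitin sulphate enzyme gene Csgalnact2 (3.17), Ppic, a cyclophilin (3.17), Mal2, an apical transport protein of epithelium (3.16), and Bex2 (3.14). The WT arrays disagreed for Mal2, at 3.02 and 4.14 against 6.62 and 6.86 in RagKO. The lysosomal gene Dram1 read 0.48 and 0.54 against 3.98 and 3.79 (3.37). The largest fall of all genes was that of the immunoglobulin light chain segment Iglv1 (-7.70), whose sequence is shared with other segments.

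The 15 measured genes on each side of Rag1 on chromosome 2 were taken as a set of their own. Of these 30, 11 were higher, 9 lower and 10 not passed, which is 66.7% called against 66.2% over all genes. The share called was near the background, and 9 of the 30 were called with at least a 2-fold difference, against 23.2% of all genes. Iftap, the nearest measured gene on 1 side, read -2.64 and -2.57 on WT arrays against 0.09 and 0.24 on RagKO arrays (2.77, adjusted p = 1.42e-07), and Traf6, the nearest on the other side, rose by 0.57. Elf5 (2.01), an epithelial factor, Pamr1 (1.71) and the catalase gene Cat (2.32) rose, and Abtb2 (-1.36) and Pex16 (-1.31) fell. Most of the higher genes lay on the side of Traf6 and most of the lower genes on the side of Iftap, a split that was not tested.

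The same genotype difference was then read on the silica arrays, whose values do not enter the saline log2 differences. The calls after saline and after silica came from the same fit, with a shared SE for each gene (Enpep 0.19129 in both). A gene with a small SE passes more easily in both, so the calls counted here are not independent. After silica 6970 genes were called, 60.1%, with 33.7% higher and 26.4% lower. Of the 1472 genes that were at least 2-fold higher after saline, 1188 were higher after silica, 39 were lower and 245 did not pass. Of the 1214 that were at least 2-fold lower, 1065 were lower, 26 higher and 123 not passed. After silica the B cell medians were -1.49 against -2.53 after saline for the receptor and coreceptors and -1.80 against -2.06 for transcription factors. They were -0.08 against -0.98 for B cell receptor signalling and -0.21 against -0.98 for plasma cell genes. T cell medians were -1.69 against -2.08 for the receptor complex, -1.34 against -1.18 for signalling and -1.11 against -0.87 for transcription factors. Medians of structural lists were smaller after silica, at 0.19 against 1.07 for alveolar type 1, 0.09 against 1.08 for type 2, -0.09 against 1.23 for club and -0.38 against 1.25 for ciliated cells, differences between exposures that were not tested for the lists.

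For 25 fixed genes the change of the genotype difference from saline to silica was tested, again adjusted over all genes, of which 23.3% were called, and 14 passed. Over all genes the change was called for 2697, and for 1649 without WT saline array 1 and 1647 without WT saline array 2. Arg1 turned from -2.21 after saline to 3.51 after silica, and the RagKO silica arrays read 3.75 and 5.01 against 1.08 and 0.65 in WT. C1qa also turned, from -0.85 to 0.84. Ciita (-3.21 and -1.15), Marco (-2.47 and -0.69), Irf8 (-2.06 and -0.66) and Cd74 (-2.02 and -0.95) stayed lower in RagKO by smaller differences after silica, although Irf8 lost that call without RagKO silica array 2 (-0.31). Gzma went from -0.49 to -2.44 and Klrd1 from -1.69 to -2.66, while Cd8a (-2.95 and -2.66), Cd79b (-3.83 and -3.47), Il2rb (-2.77 and -2.64) and Tnfsf13b (1.44 and 1.57) did not pass the test of change.

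**Figure D5:**
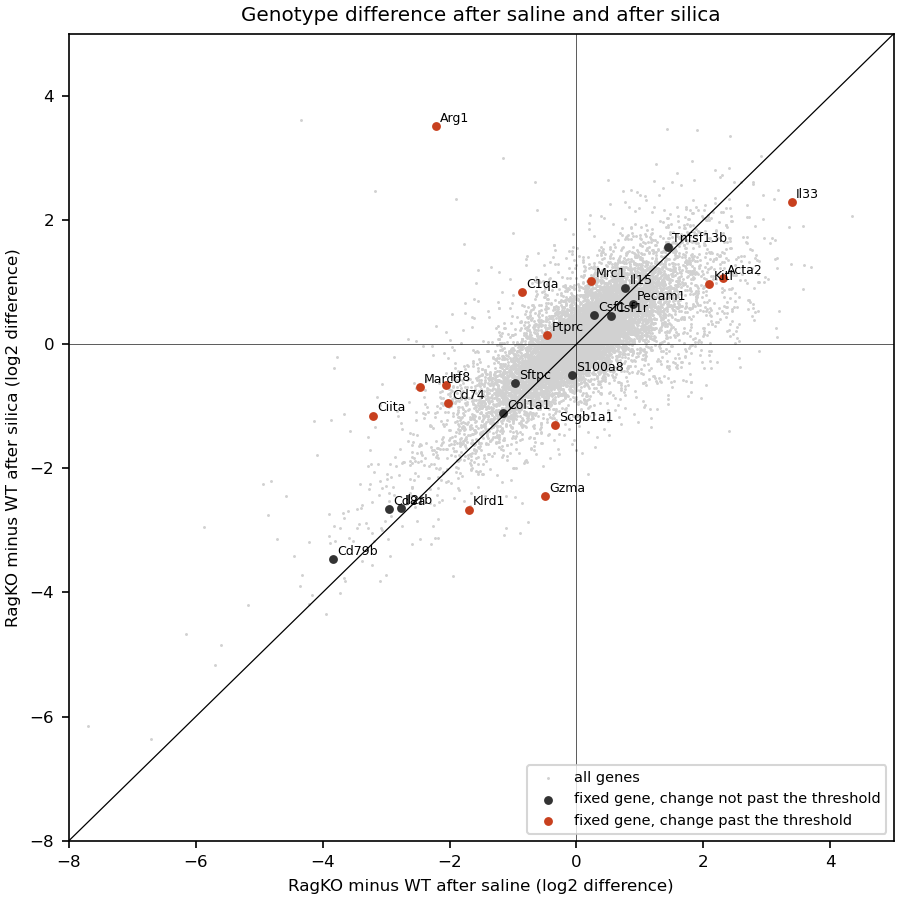
Log2 difference of RagKO minus WT after silica (vertical axis) against that after saline (horizontal axis), each from 2 arrays per group, for all genes in grey and the 25 fixed genes labelled, red where the change passed the test and black where it did not. The diagonal marks equal differences. Arg1 (-2.21 after saline, 3.51 after silica) lies far above the diagonal and Gzma (-0.49 and -2.44) below it.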

How the data were processed

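RNA of lung leukocytes (Cy5) was hybridised against universal mouse reference RNA (Cy3) on 2-colour Agilent arrays, per the labels, with 2 arrays in each of 4 groups. The authors deposited 1 log10 ratio per probe and array. The direction follows the dyes in the labels, and the log10 base was inferred from the values. How background, dye bias and centring were handled is not given in the sources used here. No signal or background levels were used, and only the number of arrays describes the precision. Each saline array had a value for 15661 to 16060 probes.

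For the analysis each deposited value was turned into a log2 ratio (times 3.3219) and not scaled further. Of 16251 probes, 14716 were measured on every array, and the tests used those among them that carried exactly 1 gene symbol. In the platform annotation 14488 probes carried 1 symbol, 10 carried more than 1 and 1753 carried none, and 14460 matched the RefSeq gene table of GRCm38.p6. Different probes of a gene were averaged (1478 of 11597 genes), although probes can disagree, as for Cxcl12, Id2, Sod1, Flt3l (-0.85 and 0.05) and Lrrn4 (-1.42 and 0.02). Some tested genes had a further probe left out for a missing value. It differed less between the groups for Tnfsf13b, Cd80, Itgax (0.49 and 0.49 in WT against 0.10 in RagKO) and Icos (1.80 and 1.84 against 0.61). That of Bcl11a was far lower in RagKO (2.82 and 2.99 against 0.16), like its tested value.

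The 4 group means were fitted over the 8 arrays in limma 3.58.1 (R 4.3.3) with lmFit and eBayes, 4 residual degrees of freedom and Benjamini-Hochberg adjustment over all genes at 0.05. The median SE of the saline difference was 0.126. On simulated data with 11597 genes, 50 genes each were changed by 0.5, 1, 2 and 4 on the log2 scale and the rest left equal. The fit recovered 28%, 86%, 98% and 100% of them, and 7.14% of its calls were false. The share of changed genes was far below the 66.2% called in the data. The Benjamini-Hochberg cutoff depends on that share, so these rates need not hold for the real comparison. Tables and figures used Python 3.11.15, pandas 2.3.3, numpy 2.4.6 and matplotlib 3.10.9.

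The comparison and the gene lists were chosen with earlier results of these data known. Genes were chosen by a rule. It also covers genes not named here, such as the light chain segment Igkv4-57-1 (-6.16) and most called neighbours of Rag1. The rule takes the 15 largest rises and falls, and from each list up to 6 per direction and 4 that did not pass. It adds the fixed genes, the neighbours of Rag1 and the sample checks. Named outside it, after their values were seen, were Abca3, Ccr2, Cd3g, Cd40, Cxcl15, Dcn, Ebf1, Epcam, Folr2, Fosb, Gata3, Gpx2, H2-Aa, Hspa5, Hspb1, Il34, Lum, Msln, Nqo1, Plet1, Prdx1, Psmb8, Psmb9, S1pr1, Sftpa1, Sftpd, Siglecg, Tap2, Tekt4, Thy1, Tnfrsf13b and Upk3b, and from probes with missing values Fcrla, Cd3d, Cd3e, Ikzf2, Prf1, Bank1, Cd22, Tnfrsf17, Gja5, Dnah5 and Cd8b1. Alternatives covered centring, quantile normalization, the arrays in the fit, the probe kept, missing values, low ratios, the variance model, replicate numbers as a block and each saline array left out. Leaving out each RagKO silica array was added after the data were seen. No WT silica array was left out, so the dependence of the silica differences on those arrays was not examined.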

Additional observations from a re-analysis of the deposited data

Results flagged for a closer look

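For 14 fixed genes the difference between RagKO and WT changed from saline to silica by limma's test of that change (2 arrays per group, adjusted over all 11597 genes, of which 23.3% were called). Upward changes on the log2 scale were 5.72 for Arg1 (adjusted p = 8.01e-05), 2.06 for Ciita (5.06e-04), 1.77 for Marco (8.01e-05), 1.69 for C1qa (8.82e-04), 1.40 for Irf8 (0.00534), 1.07 for Cd74 (0.00201), 0.78 for Mrc1 (0.0222) and 0.61 for Ptprc (0.0158). Downward changes were -1.95 for Gzma (6.85e-04), -1.24 for Acta2 (0.00115), -1.12 for Kitl (0.00380), -1.11 for Il33 (0.0119), -0.97 for Klrd1 (0.00182) and -0.97 for Scgb1a1 (0.00425). Of these, Arg1 and C1qa were lower in RagKO after saline and higher after silica.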

How the results depend on the processing

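Over the alternatives the genes higher in RagKO numbered 3292 to 4428 and those lower 2798 to 3750. The counts of at least 2-fold genes were 2228 to 2812 and those called after silica 5580 to 7106. The change from saline to silica was called for 2697 genes, 2342 to 2961 under the other settings and 1647 to 2485 with 1 array left out, the lowest being 1649 without WT saline array 1 and 1647 without WT saline array 2. Median centring moved the median difference by -0.06 and quantile normalization by -0.0742. Named genes that had not passed were called under median centring (H2-Eb1, Prdm1, Sftpb and Tnfrsf18) and quantile normalization (Cd24a, Id2, Prdm1 and Rora). With only the 4 saline arrays fitted they were Cd24a, Csf1, Ear6, Eif2s3y, Klrk1, Prdm1, Sftpb and Xist. Of 347 named genes, 337 to 344 kept their direction and their side of the threshold under each setting that kept all genes and left out an array or changed the scaling, probe or variance model, apart from 347 with missing silica values allowed. With the lowest 20% of genes by ratio left out, 316 named genes were tested and 0 changed. Under every alternative in which they were tested, 319 of the 347 named genes kept their call. Of 100 list counts (50 lists, higher and lower), 10 to 12 moved by over 1.5 times without 1 saline array, 10 with the lowest 20% left out, 5 under quantile normalization and 0 to 3 under the other settings. On the probe with the higher ratio, Cxcl12 read -0.18 after saline and -0.71 after silica, and Id2 -0.47 and -0.39. After silica the RagKO arrays disagreed on sex-linked transcripts: without RagKO silica array 1 Xist read 1.49 and Eif2s3y -2.91, and without RagKO silica array 2 they read -2.25 and 1.73, an alternative chosen after seeing the data, and the cause was not tested. With the replicate number as a block, 4298 genes were higher, 3370 lower and 2669 changed, and 344 of the named genes kept their call, H2-Eb1, Fcer1g and Tnfrsf18 being called besides; same-numbered arrays deviated with r of -0.0728 to 0.111, so the numbers were not read as pairs. Only 2 arrays per group limit the precision, and a group with an array left out has 1 array assumed to vary like the others.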
